A study of Mus musculus with 24 samples.

Results

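The genes described here are 10 components of the circadian clock in mouse embryonic fibroblasts (MEFs) that had lost Myc, Mlx or both. They were taken by name from the 2 deposited expression tables, 1 for primary and 1 for immortalized cells, and all 10 (Clock, Per1, Per2, Per3, Cry1, Cry2, Nr1d1, Nr1d2, Dbp and Tef) had a row among the 41710 genes of each table. Each table held 12 libraries, 3 for each of 4 genotypes: WT cells with intact loci, MycKO cells without Myc, MlxKO cells without Mlx, and double-knockout (DKO) cells without either. The WT libraries of a table served every comparison with that table's knockouts. The deposited unit was CPM, a read count scaled for library size. The MEFs came from embryonic day 14 to 16 embryos that carried floxed Myc and/or Mlx alleles and a CreER transgene, a Cre recombinase fused to the oestrogen receptor and driven by the ROSA26 promoter. Each line was a pool of embryos, at least 6 per the labels. Excision was induced with 500 nM 4-hydroxytamoxifen (4OHT) for 7 days in primary cells, whose RNA was taken on day 10, and for 10 days in immortalized cells, while WT controls received the ethanol vehicle or, for immortalized cells, medium without 4OHT. In comparisons with WT, loss of a gene and past exposure to 4OHT therefore cannot be told apart, although 4OHT was withdrawn at least 3 days ahead of the measurements, and DKO against MycKO and DKO against MlxKO compare cells that were all exposed. Each knockout was made from its own floxed line, so line and genotype cannot be told apart in any comparison between knockouts. The paper used a single WT line as the control in most cases. Which line gave these WT libraries was not stated, so line may also differ in comparisons with WT. Immortalized cells also carried the SV40 T-antigen from a lentiviral vector, with which each line was transduced. The paper reports that most immortalized MycKO cells were tetraploid or pseudo-tetraploid and that DKO cells stayed euploid. It also describes primary MycKO and DKO cells as growth-arrested when their RNA was profiled. The part of these states in the differences below was not tested. Neither the time of day at harvest nor the time since the last medium change was stated, and the cultures were not described as synchronized. The primary libraries of a group were described as biological replicates, but whether the 3 libraries came from separately grown cultures of the pooled line was not stated, so the p-values measure only the spread between these libraries, which may be technical.

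The clock is a feedback loop of transcription. CLOCK and its partner BMAL1 bind E-boxes, short DNA elements with the letters CACGTG, and activate the Per, Cry, Nr1d, Dbp and Tef genes, among others; the PER and CRY proteins then repress CLOCK and BMAL1, and the nuclear receptors encoded by Nr1d1 (REV-ERBα) and Nr1d2 (REV-ERBβ) repress the gene for BMAL1. DBP and TEF are PAR bZIP transcription factors that bind D-boxes, and MYC and MLX, with their own partners, also bind the CACGTG E-box. Fibroblasts in culture have cell-autonomous clocks whose phases drift apart between cells unless they are synchronized.

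RefSeq start-site windows, from 250 bases before to 50 bases after an annotated start on build GRCm38.p6, were given for 9 of the 10 genes. Per2 had no entry. Each window matched GRCm39 once and exactly, and the coordinates below are on GRCm39. A canonical E-box, CACGTG, which reads the same on both strands, lay in the windows of 3 of the 9 genes, Per1, Cry1 and Tef, against 7.15% of all 32851 windows in the table. A variant, CACGTT or AACGTG on the other strand, lay in those of Cry1, Cry2 and Nr1d1, against 4.68% of windows. The D-boxes searched were TTATGTAA and TTACGTAA on either strand. They were matched only in Per3, with 2 copies, against 1.06% of windows. The nuclear receptor motif AGGTCA, in either orientation, was matched in Clock, Per1 and Nr1d2, against 16.3% of windows. The counts here are of genes and the shares are of windows, so the 2 are not on the same scale. Clock had 3 windows, Per1 and Tef 2 each and the other genes 1, and the 32851 windows belonged to 27025 genes. No window of Dbp held any of these letters, which says nothing of elements elsewhere in the gene. These matches are descriptions of the letters and not sites of measured binding.

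The stretches around the E-box and D-box matches are shown because E-boxes and D-boxes are the kinds of element that the clock factors named above bind. Whether these copies are used was not tested. Each is 30 bases long and runs 5′ to 3′ on the strand of its gene, with the match in capitals. Distances are from RefSeq starts. The first Per1 start lies 507 bases downstream of the canonical start of the GENCODE annotation, and its window overlaps a Per1 exon. The Per1 E-box therefore lies downstream of that canonical start. The first Tef start lies at −8741 bases from the canonical Tef start.
Per1, chr11:68989597-68989626, plus strand, E-box 166 bases before the first start: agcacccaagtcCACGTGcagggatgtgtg
Cry1, chr10:85020961-85020990, minus strand, E-box 60 bases before the start: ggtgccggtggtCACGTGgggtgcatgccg
Cry1, chr10:85020980-85021009, minus strand, E-box variant 79 bases before the start: acacacttcagaAACGTGaggtgccggtgg
Cry2, chr2:92264563-92264592, minus strand, E-box variant 166 bases before the start: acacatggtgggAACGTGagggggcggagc
Nr1d1, chr11:98666214-98666243, minus strand, E-box variant 28 bases before the start: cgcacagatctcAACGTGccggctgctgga
Tef, chr15:81686735-81686764, plus strand, E-box 127 bases before the first start: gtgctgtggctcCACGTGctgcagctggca
Tef, chr15:81695465-81695494, plus strand, E-box 138 bases before the second start: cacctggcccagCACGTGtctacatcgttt
Per3, chr4:151129309-151129338, minus strand, D-box 205 bases before the start: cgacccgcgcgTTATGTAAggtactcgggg
Per3, chr4:151129262-151129291, minus strand, D-box 158 bases before the start: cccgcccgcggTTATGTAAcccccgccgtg

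**Figure D1:**
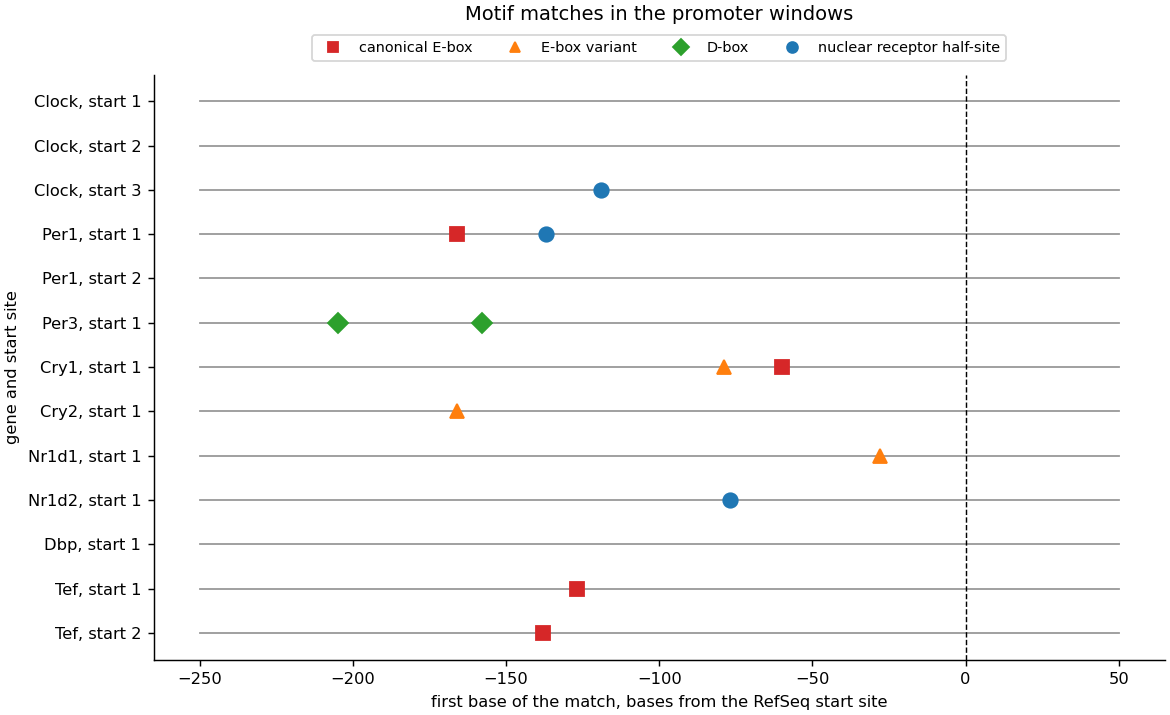
Motif matches in the RefSeq start-site windows of 9 clock genes. The x axis gives the first base of each match in bases from the start site (dashed line), each horizontal line is 1 window from 250 bases before to 50 bases after a start, and the symbols mark the 4 motifs searched; all of the matches lie upstream of the start, and the windows of Dbp, of the first and second Clock starts and of the second Per1 start hold none.

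Library depth was even. Between 15986856 and 20966163 reads were assigned to genes per library, a floor of 3 reads corresponded to 0.145 to 0.196 CPM, and each value of a clock gene rested on 94 to 2743 reads. Replicate libraries of 1 group correlated at r = 0.990 to 0.996 in the primary table and 0.983 to 0.996 in the immortalized table, with 1 exception. Immortalized WT library 4 correlated with WT libraries 2 and 3 at 0.943 to 0.950, below the 0.965 to 0.976 between those libraries and the DKO libraries, and it held 177 CPM of Myc against 48.1 and 39.9. The immortalized fold changes against WT are therefore given with and without it. Myc fell in MycKO and DKO cells of both tables (log2 fold change −1.79 and −2.08 in primary, −2.41 and −3.38 in immortalized cells), and Mlx fell in MlxKO cells (−0.76 and −0.71) and in primary DKO cells (−1.02), whereas in immortalized DKO cells its −0.44 had an adjusted p of 0.0694. Without WT library 4 that Mlx difference was −0.52 (adjusted p = 0.0340), and the immortalized Myc differences were −1.74 and −2.71. All 6 fibroblast markers passed the filter in both tables (summed level 30458 to 40127 CPM in primary and 12512 to 24114 CPM in immortalized cells), although Thy1, named after its values were seen, stood at only 10.2 to 21.1 CPM in immortalized DKO cells and WT libraries 2 and 3.

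All 10 clock genes passed the filter on low values (at least 1 CPM in at least 3 libraries) in both tables. Per kilobase of exon, Nr1d1 was the highest in primary WT cells (12.7 ± 0.80 CPM per kb, SD, n = 3). Tef (6.03 ± 0.46) and Nr1d2 (5.67 ± 0.16) followed, and did not differ beyond their spread. Clock (3.40 ± 0.41), Dbp (3.39 ± 0.85) and Per1 (3.36 ± 0.11) were indistinguishable from one another, as were Cry2 (2.44 ± 0.38) and Cry1 (2.24 ± 0.092), and Per2 (0.908 ± 0.055) and Per3 (0.903 ± 0.034) were the lowest. In primary MycKO and DKO cells Dbp moved from the fifth to the second place, at 10.0 ± 2.0 and 11.4 ± 0.49 CPM per kb, although in MycKO cells it did not differ beyond its spread from Tef (8.45 ± 0.47), and Nr1d1 stayed first at 30.6 ± 1.8 and 29.6 ± 1.1. In immortalized WT cells Nr1d2 (16.3 ± 1.5) and Nr1d1 (15.7 ± 1.4) shared the first place within their spread. Cry2 (2.65 ± 0.46), Per3 (2.43 ± 0.35) and Per2 (2.29 ± 0.78) had the lowest means and were indistinguishable. The wide spreads of Dbp (3.85 ± 2.34) and Per1 (4.56 ± 1.82) there reached into theirs. Levels were not tested between the tables, which were normalized separately.

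**Figure D2:**
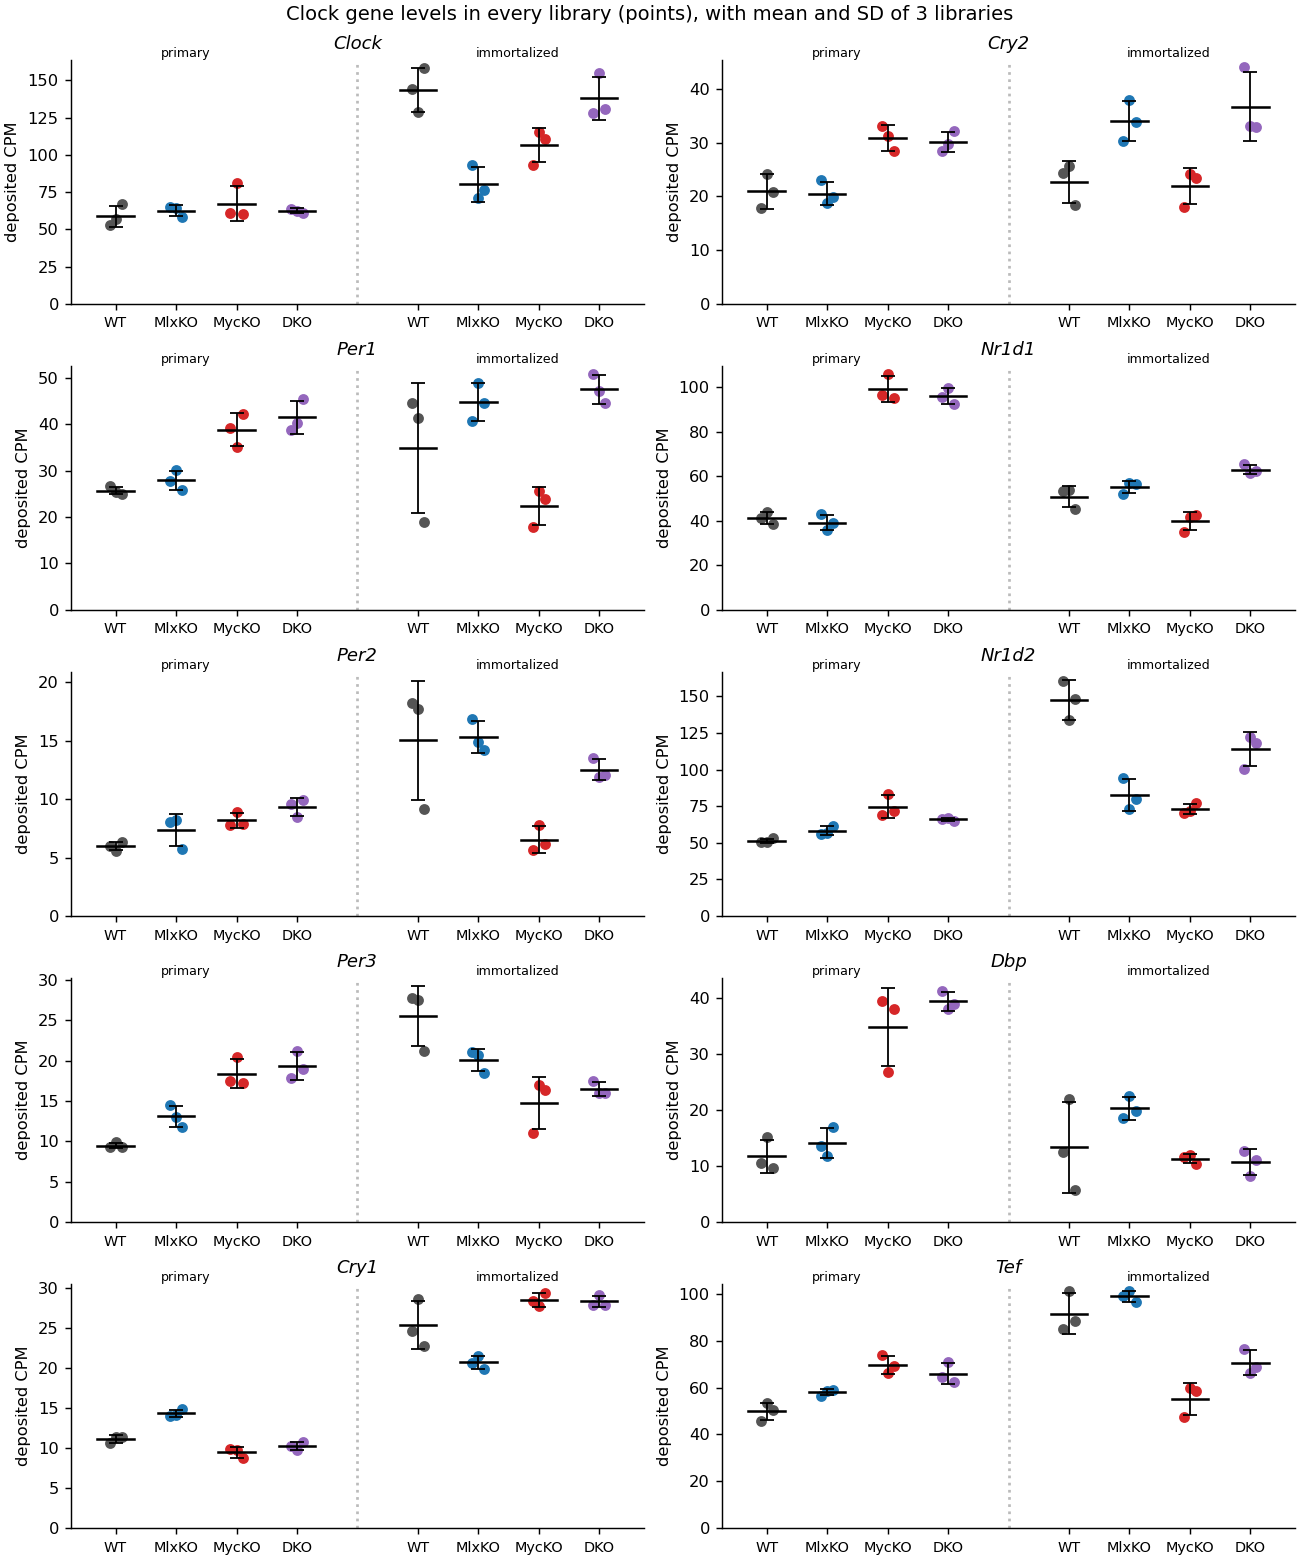
Deposited CPM of the 10 clock genes in all 24 libraries. Each point is 1 library, horizontal bars are means and error bars are SDs of 3 libraries, with primary cells left and immortalized cells right of the dotted line; primary MycKO and DKO points of Nr1d1 and Dbp lie above all WT and MlxKO points, and in immortalized WT cells 1 of the 3 points lies far below the others for Per1 and Per2.

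In primary MEFs, most of the 10 clock genes were higher in cells without Myc. Of the 10 genes, 8 were higher in MycKO than in WT cells at a Benjamini-Hochberg adjusted p under 0.05 (limma, 12 libraries in 1 fit) and none was lower, against 20.4% of all 13101 genes tested that were higher. The same count, 8 higher and none lower, was found in DKO cells against WT, where 24.0% of all genes were higher. The WT libraries were shared by the 2 comparisons. The median log2 fold change over the 10 genes was 0.54 in each, against 0.00021 and −0.0023 over all genes tested. The 8 genes were Per1, Per2, Per3, Cry2, Nr1d1, Nr1d2, Dbp and Tef. The exceptions were Clock, which encodes the activator itself, and Cry1.

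**Figure D3:**
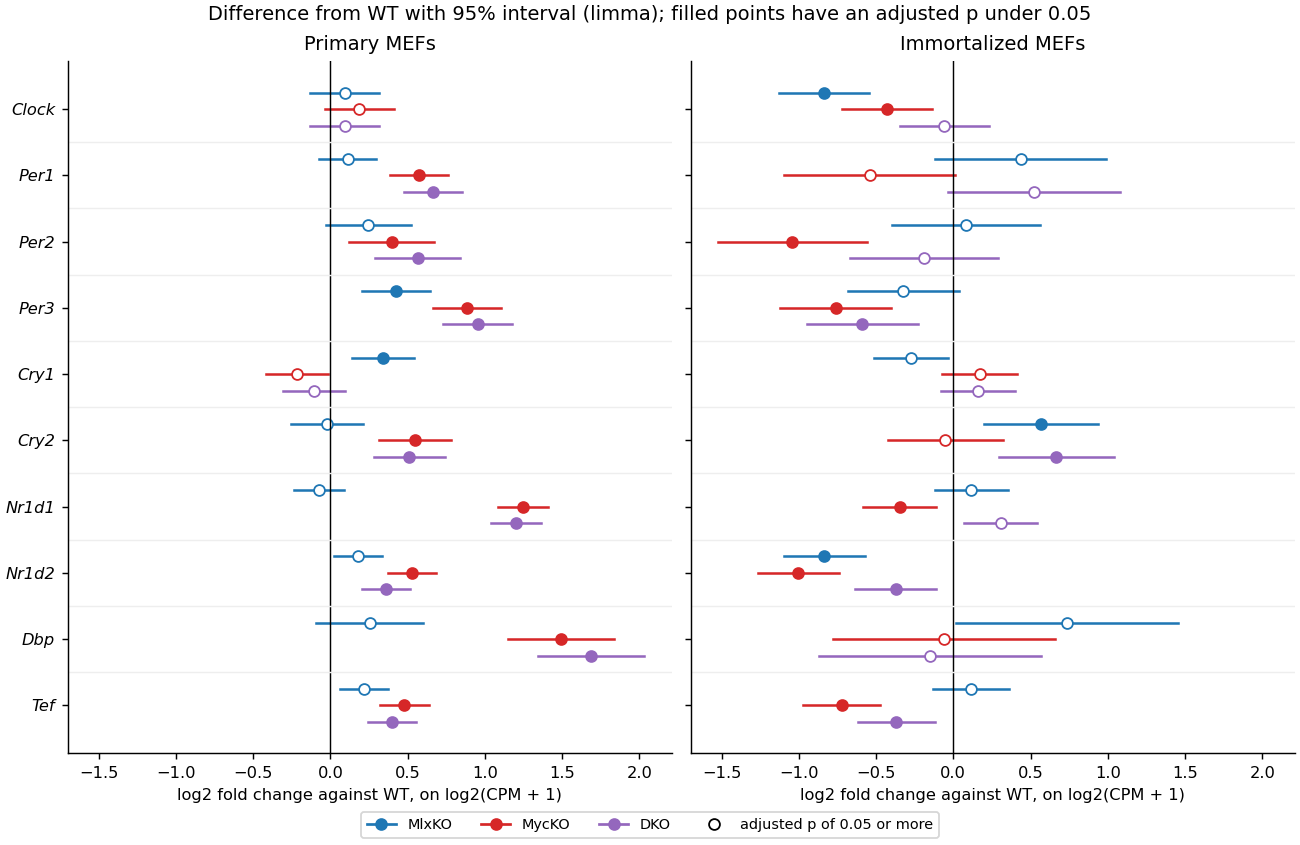
Difference of each clock gene from WT in primary (left) and immortalized (right) MEFs, as the log2 fold change on log2(CPM + 1) with its 95% interval from limma, for MlxKO, MycKO and DKO cells. Filled points have an adjusted p under 0.05; in primary cells the 16 filled MycKO and DKO points all lie above 0, and in immortalized cells the 6 filled MycKO points all lie below 0.

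Clock, which encodes the DNA-binding partner of BMAL1, gave 52.9, 56.6 and 66.7 CPM in primary WT, 60.6, 81.2 and 60.1 in MycKO, and 63.9, 62.5 and 60.9 in DKO libraries. The groups overlapped, and the log2 fold changes were 0.19 ± 0.10 (SE, adjusted p = 0.167) and 0.09 ± 0.10 (adjusted p = 0.485). Their 95% confidence intervals reached from −0.04 to 0.41 and from −0.13 to 0.32. Without WT library 3 the MycKO difference was 0.28 (adjusted p = 0.049).

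Among the Period and cryptochrome genes, Per3 had the largest log2 fold changes in primary MycKO and DKO cells. Its product is the PER protein with the least defined part in the core loop. Per3 gave 9.31, 9.88 and 9.23 CPM in WT, 17.5, 20.5 and 17.3 in MycKO, and 17.8, 21.2 and 18.9 in DKO libraries. Every MycKO and DKO library lay above every WT library, with ratios of means of 1.94 and 2.04 (log2 fold change 0.89 ± 0.10, adjusted p = 4.3e-06, and 0.95 ± 0.10, adjusted p = 1.5e-06). Per1, an early-responding Period gene, gave 26.7, 25.4 and 25.1 CPM in WT, 39.2, 35.1 and 42.1 in MycKO, and 38.7, 40.4 and 45.5 in DKO libraries. Again the groups did not overlap (0.57 ± 0.09, adjusted p = 6.7e-05, and 0.67 ± 0.09, adjusted p = 1.1e-05). Per2, whose product is a core partner of the CRY proteins, rose from 5.96 ± 0.36 to 8.18 ± 0.63 CPM in MycKO (0.40 ± 0.13, adjusted p = 0.0207) and 9.32 ± 0.78 in DKO cells (0.57 ± 0.13, adjusted p = 0.0017). The Per2 call in MycKO cells was lost without WT library 2 (0.36, adjusted p = 0.070) or MycKO library 10 (0.34, adjusted p = 0.058), with no filter on low values (0.40, adjusted p = 0.0516), and with each library scaled to its own total (0.31, adjusted p = 0.065).

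Of the paralogous cryptochromes, the main repressors of CLOCK and BMAL1, Cry2 rose and Cry1 was not called. Cry2 gave 17.8, 24.2 and 20.9 CPM in WT, 33.2, 31.3 and 28.4 in MycKO, and 28.4, 29.8 and 32.1 in DKO libraries. Both knockouts lay above every WT library (0.55 ± 0.11, adjusted p = 0.00067, and 0.51 ± 0.11, adjusted p = 0.00094). Cry1 gave 10.6, 11.4 and 11.4 CPM in WT, 9.92, 9.75 and 8.72 in MycKO, and 10.3, 9.82 and 10.8 in DKO libraries. All MycKO libraries lay below all WT libraries, but neither difference passed the threshold (−0.22 ± 0.10, adjusted p = 0.080, and −0.10 ± 0.10, adjusted p = 0.382). With each library scaled to its own total, the MycKO difference of Cry1 was −0.31 (adjusted p = 0.015).

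Of the REV-ERB genes, repressors of Arntl (the gene of BMAL1), Nr1d1 had the larger log2 fold change. It gave 41.2, 43.7 and 38.5 CPM in WT, 96.4, 106 and 95.2 in MycKO, and 95.5, 99.6 and 92.4 in DKO libraries. All 6 knockout libraries lay far above the 3 WT libraries, and the ratios of means were 2.41 and 2.33 (1.25 ± 0.08, adjusted p = 5.2e-09, and 1.20 ± 0.08, adjusted p = 4.1e-09). Nr1d2 gave 50.2, 50.8 and 52.9 CPM in WT, 69.1, 83.4 and 71.4 in MycKO, and 66.2, 67.0 and 64.9 in DKO libraries. The rise in Nr1d2 was smaller (0.53 ± 0.07, adjusted p = 2.5e-05, and 0.36 ± 0.07, adjusted p = 0.00072), with no overlap. The exons of Nr1d1 (chr11:98658752-98666188, minus strand) overlap on the opposite strand with those of Thra, a thyroid hormone receptor gene, over 52.3% of their bases. The libraries were directional, but whether reads were counted by strand was not stated. Thra also rose, from 34.5 ± 1.9 CPM in WT to 54.0 ± 11.1 in MycKO (0.61 ± 0.11, adjusted p = 0.00033) and 81.6 ± 6.2 in DKO cells (1.22 ± 0.11, adjusted p = 2.2e-07), and its part in the Nr1d1 values was not tested. Unlike Nr1d1, Thra was higher in DKO than in MycKO cells (0.60 ± 0.11, adjusted p = 0.00089). Clock and Dbp share 11.9% and 15.5% of their exon bases with Tmem165 and Sphk2 on the opposite strand, and neither of these was called in primary MycKO cells (−0.11 and −0.02, adjusted p = 0.200 and 0.895), while Sphk2 was higher in primary DKO cells (0.24, adjusted p = 0.0244) and in immortalized MycKO and MlxKO cells (0.64 and 0.55, or 0.60 and 0.51 without WT library 4). Their part in the Clock and Dbp values was not tested. Thra, Tmem165 and Sphk2 are named for their overlap with these genes, which was found after the values were seen.

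Of the PAR bZIP genes, which lie at the output of the loop, Dbp showed the widest change of the 10 in MycKO and DKO cells. Dbp gave 10.5, 15.2 and 9.64 CPM in WT, 39.5, 26.8 and 38.0 in MycKO, and 41.3, 38.0 and 39.0 in DKO libraries. No library overlapped with WT, and the ratios of means were 2.95 and 3.35 (1.49 ± 0.16, adjusted p = 1.9e-06, and 1.69 ± 0.16, adjusted p = 3.4e-07). MycKO library 10 had the lowest Dbp of the MycKO and DKO libraries and the highest Clock, Per2, Per3, Nr1d1 and Nr1d2 of the MycKO libraries. Tef rose from 49.8 ± 3.8 to 69.8 ± 3.9 and 66.0 ± 4.6 CPM (0.48 ± 0.07, adjusted p = 6.9e-05, and 0.40 ± 0.07, adjusted p = 0.00031).

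These are the 250 bases before the Nr1d1 start and before the second Tef start, shown because both genes carry an E-box form there and rose in primary MycKO and DKO cells; neither stretch overlaps an exon of its own gene in GENCODE vM39, and each overlaps an exon of an antisense gene (Gm31862 and Gm17597).
Nr1d1, chr11:98666204-98666453, minus strand, E-box variant in capitals: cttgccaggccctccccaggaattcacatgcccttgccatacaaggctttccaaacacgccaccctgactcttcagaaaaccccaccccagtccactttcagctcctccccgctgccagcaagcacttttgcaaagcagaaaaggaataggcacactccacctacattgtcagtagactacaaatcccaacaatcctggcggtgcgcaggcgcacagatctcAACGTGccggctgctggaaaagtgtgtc
Tef, chr15:81695365-81695614, plus strand, E-box in capitals: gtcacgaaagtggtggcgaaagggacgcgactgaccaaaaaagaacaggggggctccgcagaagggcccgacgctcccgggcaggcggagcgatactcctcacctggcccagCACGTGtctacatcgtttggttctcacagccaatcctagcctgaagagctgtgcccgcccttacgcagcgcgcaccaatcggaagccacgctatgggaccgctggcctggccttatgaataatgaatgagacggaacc
Of the genes with an E-box form in their windows, Tef, Per1, Cry2 and Nr1d1 rose in both genotypes and Cry1, with both forms, was called in neither. Of those with windows but no E-box form, Per3, Nr1d2 and Dbp rose in both and Clock was called in neither. The part of these elements in the differences was not tested, and sequence outside the windows was not searched.

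Other markers moved with the same contrasts in primary cells. All 6 macrophage markers were lower in MycKO and in DKO cells, their summed level lay at 110.7 to 205.8 CPM in WT, 116.7 to 139.9 in MlxKO, 17.8 to 20.8 in MycKO and 34.5 to 70.1 in DKO libraries, and no marker was at 0 in a primary library. All 6 proliferation markers were lower in each of the 3 knockouts, with sums of 823.3 to 861.5 CPM in WT, 646.7 to 701.4 in MlxKO, 488.3 to 600.7 in MycKO and 400.0 to 424.9 in DKO libraries. Of the 6 fibroblast markers 5 were higher in MycKO cells, and in DKO cells 4 were higher and 1 lower. All 3 tested glucocorticoid-response genes were lower in MycKO cells (sums of 149.3 to 161.8 CPM against 246.5 to 277.2 in WT), and of the 6 immediate early genes 1 was higher there. In DKO cells 1 glucocorticoid-response gene was higher and 2 were lower (sums of 181.5 to 198.8 CPM), and 2 immediate early genes were lower. In MlxKO cells 1 glucocorticoid-response gene and 3 immediate early genes were lower. The immediate early sums there were 347.3 to 613.7 CPM, against 519.8 to 729.4 in WT libraries. The 1 endothelial marker tested was lower in all 3 knockouts, with sums of 12.9 to 13.1 CPM in WT, 2.56 to 3.29 in MlxKO, 4.21 to 6.34 in MycKO and 3.05 to 3.43 in DKO libraries. Of 2 skeletal muscle markers tested, both were lower in MlxKO cells, 1 in MycKO and 0 in DKO cells, with sums of 122.8 to 138.1 CPM in WT, 64.9 to 70.7 in MlxKO, 80.0 to 81.3 in MycKO and 119.5 to 129.7 in DKO libraries. Of 3 neural and glial markers tested, 2 were higher and 1 lower in MycKO cells, and 0 were called in DKO cells, with sums of 51.0 to 61.2 CPM in WT, 76.7 to 93.9 in MycKO and 61.2 to 65.0 in DKO libraries. The part of these in the clock gene differences was not tested, and in bulk RNA fewer cells of a type and less RNA per cell cannot be told apart.

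In primary MlxKO cells few of the clock genes were called. Of the 10 genes, 2 were higher in MlxKO than in WT cells and none was lower, against 3.75% of all genes that were higher. Per3 gave 14.4, 13.0 and 11.8 CPM in MlxKO libraries, all above WT (0.42 ± 0.10, adjusted p = 0.0169), and Cry1 gave 14.1, 14.2 and 14.9 CPM, all above WT (0.34 ± 0.10, adjusted p = 0.0329). Both calls were fragile: that of Per3 was lost without WT library 1 or MlxKO library 5 or 6 (adjusted p = 0.063, 0.076 and 0.052), and that of Cry1 without any 1 of WT library 1 or 2 or the 3 MlxKO libraries (adjusted p = 0.0638 to 0.130), with no filter (adjusted p = 0.0522) or with WT and MlxKO libraries fitted alone (adjusted p = 0.0577). The other 8 genes had log2 fold changes from −0.07 for Nr1d1 to 0.25 for Dbp and Per2. Of these, Tef (0.22, adjusted p = 0.078) and Nr1d2 (0.18, adjusted p = 0.147) were called only without MycKO library 10 (adjusted p = 0.036 and 0.045) and, for Tef, with library-total scaling (0.25, adjusted p = 0.045).

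Removing Mlx in addition to Myc changed none of the 10 genes detectably in primary cells. Between DKO and MycKO cells no clock gene was called by limma (21.5% of all genes were), 1 had an unadjusted p under 0.05 (Nr1d2, −0.17 ± 0.07, adjusted p = 0.119), and edgeR and DESeq2 each called 0. The 95% intervals of the 10 differences lay within −0.33 and 0.54. Conversely, DKO cells against MlxKO cells gave 6 called genes where 49.1% of all genes were called: Per1, Per3, Cry2, Nr1d1 and Dbp were higher (0.53 to 1.43) and Cry1 was lower (−0.45 ± 0.10, adjusted p = 0.00102). Per2 (0.32), Nr1d2 (0.18) and Tef (0.18) missed the threshold narrowly (adjusted p = 0.0506, 0.0523 and 0.0553), and edgeR, DESeq2 and limma with median-ratio scaling each called them too, for 9 of the 10 genes. The test of whether the effect of Mlx loss depended on Myc (the interaction) called only Nr1d2 (−0.35 ± 0.10, adjusted p = 0.035) against 13.5% of all genes. That call was lost without any 1 of 7 libraries (WT 1, WT 2, MlxKO 6, MlxKO 7 or a DKO library; adjusted p = 0.051 to 0.084), and Tef was called without DKO library 14 or MycKO library 10 (−0.35 and −0.34, adjusted p = 0.0491 and 0.0295).

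In immortalized MEFs the clock genes that were called in MycKO cells were lower than in WT cells. Of the 10, 6 were lower in MycKO than in WT cells and none was higher, against 23.5% of all 12880 genes that were lower, with a median of −0.49 over the 10 genes against −0.0010 over all genes. Leaving out WT library 4, 7 were lower and none higher, against 26.7% of all genes that were lower, with a median of −0.63. The 6 genes were Clock, Per2, Per3, Nr1d1, Nr1d2 and Tef, and the seventh was Per1. Of the 8 genes that were higher in primary MycKO cells, 5 (Per2, Per3, Nr1d1, Nr1d2 and Tef) were lower here, Per1, Cry2 and Dbp were not called, and Clock, which was lower here, had not been called in primary cells. The opposite signs in the primary and immortalized tables were not tested against each other, because the tables were normalized separately. The share of all genes that were higher in primary and lower in immortalized MycKO cells was not computed.

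Clock gave 143.9, 128.6 and 158.0 CPM in WT libraries 2, 3 and 4, 93.4, 115.1 and 110.5 in MycKO, 93.4, 71.0 and 76.2 in MlxKO, and 128.2, 154.6 and 130.9 in DKO libraries. MycKO and MlxKO libraries all lay below WT, with MlxKO lowest, while DKO and WT overlapped. The log2 fold changes were −0.43 ± 0.13 in MycKO (adjusted p = 0.0190), −0.84 ± 0.13 in MlxKO (adjusted p = 0.00088) and −0.06 ± 0.13 in DKO cells (adjusted p = 0.788). They were −0.36, −0.77 and 0.01 without WT library 4, with the same calls. The MycKO call was lost without WT library 2 (−0.42, adjusted p = 0.051) or MycKO library 9 (−0.34, adjusted p = 0.067).

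Among the Period genes, Per2 fell most. It gave 18.2, 17.8 and 9.13 CPM in WT libraries 2, 3 and 4, 5.62, 7.80 and 6.19 in MycKO, and 13.5, 11.9 and 12.1 in DKO libraries. WT library 4 lay closer to the MycKO libraries than to the other WT libraries, yet above all of them. The MycKO difference was −1.04 ± 0.22 (adjusted p = 0.0023), and −1.34 (adjusted p = 4.6e-06) without WT library 4. Per1 gave 44.5, 41.4 and 18.9 CPM in WT libraries 2, 3 and 4, 17.8, 25.6 and 23.8 in MycKO, 40.8, 48.9 and 44.7 in MlxKO, and 50.9, 47.2 and 44.6 in DKO libraries. WT library 4 lay among the MycKO libraries, so the MycKO difference was not called with it (−0.54 ± 0.26, adjusted p = 0.098) and was called without it (−0.92, adjusted p = 0.00013) and by DESeq2 with all libraries (−0.63, adjusted p = 0.0341). Per3 gave 27.8, 27.6 and 21.2 CPM in WT, 11.0, 17.0 and 16.3 in MycKO, and 17.5, 16.01 and 16.02 in DKO libraries. Both knockouts lay below WT (−0.76 ± 0.17, adjusted p = 0.0027, and −0.59 ± 0.17, adjusted p = 0.028), and did so without WT library 4 (−0.88 and −0.71, adjusted p = 0.00042 and 0.0061).

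Nr1d2 fell in all 3 immortalized knockouts. It gave 160.6, 133.8 and 148.3 CPM in WT, 70.1, 72.0 and 76.9 in MycKO, 94.2, 73.1 and 80.2 in MlxKO, and 100.5, 122.5 and 118.5 in DKO libraries. All 9 knockout libraries lay below the 3 WT libraries, and the WT mean was 2.02 times the MycKO mean and 1.79 times the MlxKO mean. The log2 fold changes were −1.002 ± 0.12 (adjusted p = 4.5e-05), −0.83 ± 0.12 (adjusted p = 0.00054) and −0.37 ± 0.12 (adjusted p = 0.048), and −0.997, −0.83 and −0.37 without WT library 4, when the DKO difference had an adjusted p of 0.059. Nr1d1 gave 53.2, 53.7 and 45.5 CPM in WT, 35.0, 41.7 and 42.4 in MycKO, and 65.3, 61.3 and 62.1 in DKO libraries. Its MycKO difference (−0.35 ± 0.11, adjusted p = 0.0199, and −0.42, adjusted p = 0.0050, without WT library 4) was called, but not without WT library 2 (−0.31, adjusted p = 0.070), WT library 3 (−0.31, adjusted p = 0.059) or MycKO library 9 (−0.26, adjusted p = 0.060), nor with WT and MycKO libraries fitted alone (adjusted p = 0.0972). DKO libraries all lay above WT (0.31 ± 0.11, adjusted p = 0.068, and 0.23, adjusted p = 0.149, without WT library 4). Thra, which overlaps Nr1d1, was not called in immortalized MycKO or DKO cells with all libraries (0.0042 ± 0.22 and 0.13 ± 0.22, adjusted p = 0.991 and 0.709), but without WT library 4 it was lower in MycKO cells (−0.34, adjusted p = 0.0269), as Nr1d1 was.

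Tef gave 85.1, 101.4 and 88.3 CPM in WT, 47.4, 59.7 and 58.6 in MycKO, 99.1, 101.3 and 96.6 in MlxKO, and 76.7, 66.3 and 69.0 in DKO libraries. MycKO and DKO libraries lay below WT (−0.72 ± 0.11, adjusted p = 0.00033, and −0.37 ± 0.11, adjusted p = 0.041; −0.75 and −0.39, adjusted p = 0.00019 and 0.034, without WT library 4), and MlxKO libraries overlapped with WT. Dbp, the gene that rose most in primary MycKO and DKO cells, gave 12.5, 21.9 and 5.72 CPM in WT libraries 2, 3 and 4 and 11.6, 11.9 and 10.4 in MycKO libraries. The WT libraries spanned all MycKO libraries. The MycKO difference of Dbp was −0.06 with a 95% interval from −0.78 to 0.66, and −0.52 (adjusted p = 0.053) without WT library 4.

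Of the cryptochromes, Cry2 was called against WT with all libraries and Cry1 was not. Cry2 gave 24.3, 25.7 and 18.3 CPM in WT, 18.0, 24.2 and 23.4 in MycKO, 30.4, 37.9 and 33.8 in MlxKO, and 44.1, 33.2 and 32.9 in DKO libraries. It was higher in MlxKO (0.57 ± 0.17, adjusted p = 0.0206) and DKO cells (0.67 ± 0.17, adjusted p = 0.0189) and was not called in MycKO cells (−0.05 ± 0.17, or −0.19 with an adjusted p of 0.325 without WT library 4). Without WT library 4 the MlxKO and DKO differences were still called (0.43 and 0.52, adjusted p = 0.043 and 0.031), but the MlxKO call was lost without MlxKO library 6 or 7 (adjusted p = 0.090 and 0.059) and the DKO call without DKO library 13 (0.53, adjusted p = 0.091). Cry1 gave 24.7, 28.7 and 22.8 CPM in WT and 20.7, 21.6 and 19.9 in MlxKO libraries. The MlxKO difference of Cry1 (−0.27 ± 0.11, adjusted p = 0.067) was called without WT library 4 (−0.35, adjusted p = 0.021).

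MlxKO against WT thus gave 3 called genes in immortalized cells, with Clock and Nr1d2 lower and Cry2 higher, and DKO against WT gave 4, with Per3, Nr1d2 and Tef lower and Cry2 higher. Over all genes 38.9% and 18.9% were called in these comparisons. The counts without WT library 4 were 5 (Per3 and Cry1 added, both lower) and 4 (Per2 in place of Nr1d2), against 46.8% and 22.0% of all genes. The Dbp difference in MlxKO cells depended on which WT library was left out. It was 0.74 (adjusted p = 0.0950) with all libraries, 0.27 (adjusted p = 0.307) without WT library 4 and 1.16 (adjusted p = 0.0056) without WT library 3, the only one of these that was called. The DKO calls rested on few libraries: leaving out any 1 DKO library left 0 or 1 of the 10 called, without WT library 2 there was 1, and with WT and DKO libraries fitted alone there were 0 (limma; 5 of the 10 had an unadjusted p under 0.05 with all libraries, edgeR called 2 and DESeq2 called 5, which added Nr1d1, higher at 0.31 with an adjusted p of 0.0446).

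**Figure D4:**
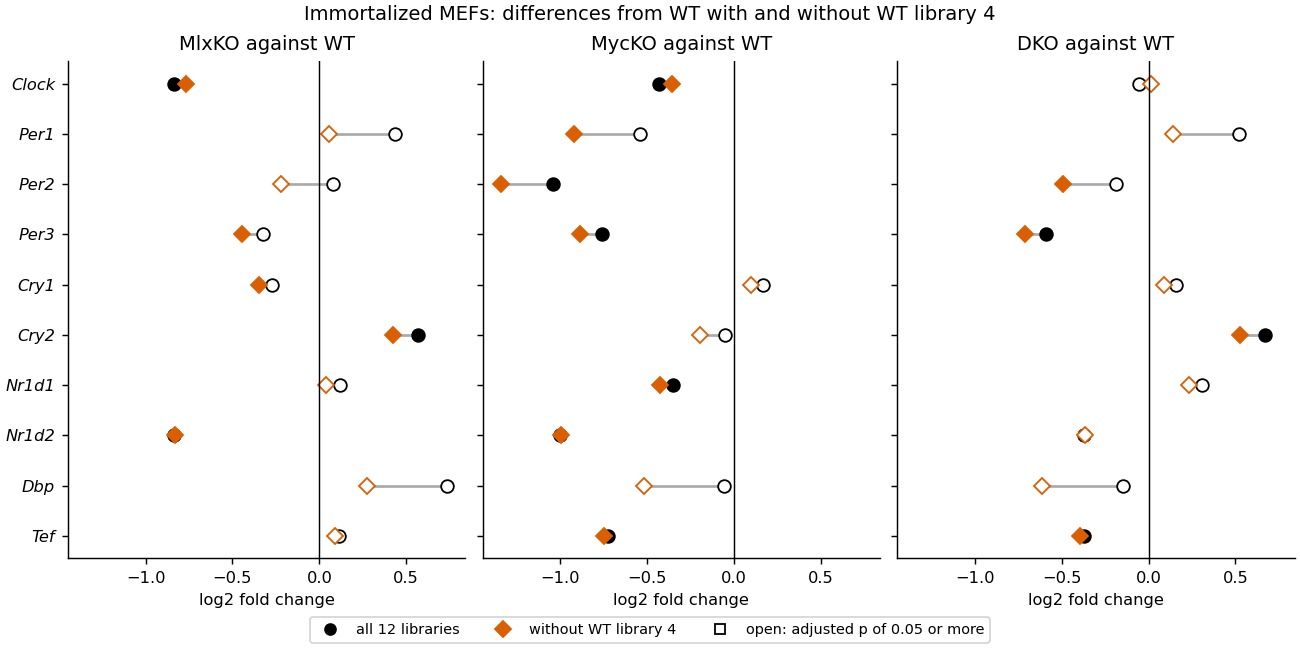
Log2 fold changes of the 10 clock genes against WT in immortalized MlxKO, MycKO and DKO cells, with all 12 libraries (black circles) and without WT library 4 (orange diamonds); filled symbols have an adjusted p under 0.05. Leaving out this library moved Per1, Per2 and Dbp to lower values in all 3 comparisons and left Nr1d2 and Tef nearly in place.

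In immortalized cells several clock genes were higher in DKO than in MycKO cells. Between DKO and MycKO cells, which involves no WT library, 6 genes were higher and none was lower, against 14.8% of all genes that were higher: Per1 (1.06 ± 0.26, adjusted p = 0.0076), Per2 (0.85 ± 0.22, adjusted p = 0.0119), Cry2 (0.72 ± 0.17, adjusted p = 0.0072), Nr1d1 (0.65 ± 0.11, adjusted p = 0.00073), Nr1d2 (0.63 ± 0.12, adjusted p = 0.0019) and Tef (0.35 ± 0.11, adjusted p = 0.034). For all 6, every DKO library lay above every MycKO library, as it did for 24.8% of all genes. The MycKO libraries also entered the comparison with WT, with the opposite sign, so the signs of these 2 comparisons are not independent. Of the 6 genes, Cry2 and Per1 had not been called in MycKO against WT cells. With WT library 4 out of the shared estimate of spread, Clock was also called (0.37, adjusted p = 0.0260), as it was by DESeq2, with library-total scaling, with the MycKO and DKO libraries fitted alone, and without WT library 3 or MlxKO library 5 (adjusted p = 0.0344 to 0.0489). There were 7 genes without WT library 4, against 20.4% of all genes that were higher. The Tef call was lost without any 1 DKO library, MycKO library 9 or MlxKO library 7 (adjusted p = 0.0526 to 0.113). Against MlxKO cells, DKO cells were higher in Clock (0.78 ± 0.13, adjusted p = 0.00124), Nr1d2 (0.46 ± 0.12, adjusted p = 0.013) and Cry1 (0.44 ± 0.11, adjusted p = 0.0116) and lower in Tef (−0.48 ± 0.11, adjusted p = 0.0077), 4 of 10 against 30.1% of all genes. The Cry1 call was lost without MlxKO library 7 (adjusted p = 0.0532), and that of Nr1d2 without MlxKO library 6 or 7 or DKO library 14 or 15 (adjusted p = 0.0515 to 0.0677). With each library scaled to its own total neither was called (0.27 and 0.29, adjusted p = 0.0998 and 0.0701). Dbp, at 18.6, 22.6 and 19.7 CPM in MlxKO and 12.7, 8.14 and 11.1 in DKO libraries, was not called with all libraries (−0.89 ± 0.33, adjusted p = 0.0605). It was called lower without WT library 3 or 4 in the shared spread (adjusted p = 0.0143 and 0.00205), with the groups fitted alone (adjusted p = 0.00118), by DESeq2 (−0.94, adjusted p = 0.0267) and with library-total scaling (−1.05, adjusted p = 0.0358).

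The interaction was tested within the immortalized table. The effect of Mlx loss was more positive without Myc than with it for Clock (1.21 ± 0.19, adjusted p = 0.00035), Nr1d1 (0.54 ± 0.15, adjusted p = 0.0131) and Nr1d2 (1.46 ± 0.17, adjusted p = 4.9e-05), and at 1.14, 0.61 and 1.46 without WT library 4. These were 3 of the 10 genes, all positive, against 47.4% of all genes called and 23.7% called positive. There were 6 without WT library 4, all positive, as Per1 (1.01, adjusted p = 0.00063), Per2 (1.07, adjusted p = 0.00045) and Per3 (0.62, adjusted p = 0.026) were added, against 28.0% of all genes called positive. The Nr1d1 call was lost with library-total scaling (0.36, adjusted p = 0.0832). The interaction of Dbp was −0.83 (adjusted p = 0.161) with all libraries, −0.37 (adjusted p = 0.288) without WT library 4 and −1.25 (adjusted p = 0.013) without WT library 3, when it was called. Per2 was called without MycKO library 10 (0.89, adjusted p = 0.0496), by edgeR (0.89, adjusted p = 0.044) and by DESeq2 (0.90, adjusted p = 0.0268). Clock and Nr1d2 lay below WT in every MycKO and MlxKO library, whereas the DKO libraries overlapped with WT for Clock and lay between WT and both other knockouts for Nr1d2.

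Markers of the culture also moved with these contrasts. Of the 6 immediate early genes, which answer serum and growth factors, 4 were lower and 1 higher in immortalized MycKO cells, with sums of 661.9 to 1190 CPM in WT, 665.0 to 1060 in MlxKO, 399.6 to 483.1 in MycKO and 728.9 to 854.7 in DKO libraries. The calls in MycKO cells were again 4 lower and 1 higher without WT library 4. Fos, named after its values were seen, gave 191.8, 112.4 and 21.3 CPM in WT libraries 2, 3 and 4 and 3.83, 5.49 and 5.52 in MycKO libraries. Of 3 glucocorticoid-response genes tested, 1 was higher in MycKO and 1 lower in MlxKO cells against WT. Between DKO and MycKO cells 1 was higher. Without WT library 4 the calls were 1 higher in MycKO and 1 higher and 2 lower in MlxKO cells. For DKO against MycKO cells they were then 1 higher and 1 lower. The list summed to 380.3 to 1067 CPM in WT and 277.5 to 312.5 in MlxKO libraries. It summed to 427.9 to 466.3 in MycKO and 737.3 to 872.4 in DKO libraries. Skeletal muscle markers summed to 190.7 to 231.4 CPM in MycKO and 85.6 to 91.0 in DKO libraries against 13.1 to 22.7 CPM in WT libraries. The 1 marker tested of each of 3 lists was higher in MycKO cells, by 3.50 for skeletal muscle, 2.21 for endothelial and 1.44 for neural and glial cells on the log2 scale (3.28, 2.13 and 1.89 without WT library 4). The endothelial sums were 2.43 to 3.27 CPM in WT and 13.3 to 17.3 in MycKO libraries, and the neural and glial sums 2.11 to 7.85 in WT and 11.5 to 12.1 in MycKO libraries. The fibroblast markers summed to 15585 to 24065 CPM in WT, 12745 to 16378 in MycKO, 12512 to 15689 in MlxKO and 19621 to 24114 in DKO libraries, and of the 6 markers 1 was higher and 1 lower in MycKO cells, or 1 higher and 2 lower without WT library 4. Macrophage markers were low in all immortalized groups (sums of 1.18 to 5.80 CPM, with Ptprc at 0 in every WT, MlxKO and DKO library), and 1 of 6 passed the filter. Against WT it was lower in MycKO (−0.97) and higher in MlxKO (0.42) and DKO cells (0.63). Without WT library 4 these were −0.92, 0.47 and 0.68, with the same calls. It was higher in DKO than in MycKO cells (1.61). The proliferation markers summed to 1707 to 1740 CPM in MycKO and 1670 to 2165 in WT libraries. The part of these values in the clock gene differences was not tested.

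Across the 12 primary libraries, 36 of the 45 pairs of clock genes had a positive Pearson r on log2(CPM + 1), with a median of 0.74, and across the 12 immortalized libraries 31 did, with a median of 0.38. These describe libraries that share genotypes and are no test. Dbp and Nr1d1 had the highest r in primary cells (0.94) and Cry1 and Nr1d1 the lowest (−0.79), whereas in immortalized cells the highest was between Per1 and Nr1d1 (0.92) and the lowest between Clock and Dbp (−0.71). The named genes most like each clock gene over both tables were ranked by the lower of the r over 12 primary and the r over 12 immortalized libraries, among 11754 genes. They were Xpr1 and Strn3 for Clock (0.92 each), Tmem176b and Tmem176a for Per1 (0.91 each), Fbxl20 (0.93) and Chd6 (0.91) for Per2, Fbxl20 (0.93) and Kmt5b (0.89) for Per3, and Hey1 (0.83) and Pcdh10 (0.82) for Cry1. For the others they were Dennd1a (0.89) and Igsf9b (0.87) for Cry2, Dag1 (0.94) for Nr1d1, Prkacb (0.92) and Chp1 (0.89) for Nr1d2, Ypel3 (0.90) and Btbd2 (0.89) for Dbp, and H1f4 (0.91) and Fto (0.87) for Tef.

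Other clock genes were counted from a list of 23 by role, of which 21 were tested in the primary and 20 in the immortalized table. In primary cells 3 were higher and 4 lower in MycKO cells, 8 higher and 4 lower in DKO cells, and none was called in MlxKO cells (limma; 8 had an unadjusted p under 0.05, edgeR called 0 and DESeq2 called 1), with median log2 fold changes of 0.06, 0.09 and 0.07. Over all genes 42.3%, 49.5% and 8.88% were called in these comparisons. In immortalized cells 1 was higher and 8 lower in MycKO, 3 higher and 4 lower in MlxKO, and 2 higher and 2 lower in DKO cells, with medians of −0.19, −0.15 and −0.03, against 48.0%, 38.9% and 18.9% of all genes. These counts without WT library 4 were 2 and 9, 2 and 6, and 2 and 3. Arntl, which encodes BMAL1 and is repressed by the REV-ERB proteins, gave 35.3, 34.2 and 36.3 CPM in primary WT, 24.1, 24.0 and 24.1 in MycKO, and 30.3, 31.4 and 29.3 in DKO libraries. All knockout libraries lay below WT (−0.53 ± 0.07, adjusted p = 1.2e-05, and −0.21 ± 0.07, adjusted p = 0.018), opposite in sign to Nr1d1. Every DKO library of Arntl lay above every MycKO library, whereas Nr1d1 did not differ detectably between these cells (limma, −0.05, adjusted p = 0.72). Whether the REV-ERB genes had a part in the Arntl values was not tested. In immortalized cells Arntl was not called in any knockout (0.22, −0.21 and −0.03 in MycKO, MlxKO and DKO cells, and 0.17, −0.26 and −0.08 without WT library 4). Rora, whose product activates Arntl from the element that the REV-ERB proteins also bind, gave 31.4, 29.8 and 31.2 CPM in primary WT, 49.0, 65.7 and 48.4 in MycKO and 59.1, 55.3 and 56.7 in DKO libraries, so that its knockout libraries all lay above WT (0.79 ± 0.10 and 0.87 ± 0.10). In immortalized cells it was lower without either gene alone, from 79.9, 77.6 and 53.7 CPM in WT to 16.1, 20.6 and 18.0 in MycKO (−1.88 ± 0.16, adjusted p = 3.5e-06) and 41.3, 33.6 and 31.5 in MlxKO libraries (−0.96 ± 0.16, adjusted p = 0.0012), and gave 63.6, 73.0 and 68.0 in DKO libraries (−0.02 ± 0.16, adjusted p = 0.929). Without WT library 4 the 3 differences of Rora were −2.06, −1.14 and −0.21, with the same calls. Timeless, which works at replication forks, was lower in MycKO and DKO cells of both tables (−0.53 and −0.90 in primary, −0.56 and −0.45 in immortalized cells, or −0.60 and −0.49 without WT library 4).

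**Figure D5:**
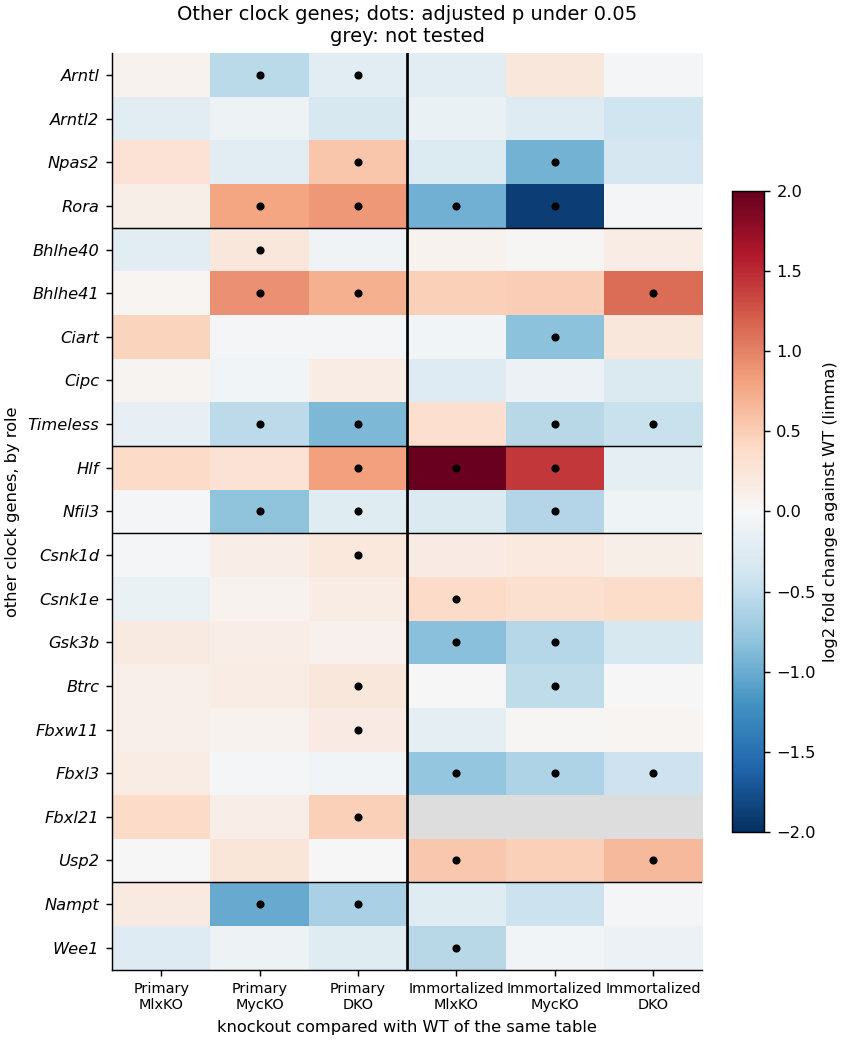
Log2 fold changes against WT (colour) of the other clock genes tested, in rows by role from the activators at the top to the output genes at the bottom, and in columns by table and knockout; dots mark an adjusted p under 0.05 and grey cells genes that were not tested. Arntl is lower in primary MycKO and DKO cells, and Rora is higher there and lower in immortalized MycKO and MlxKO cells.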

How the data were processed

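RNA-seq had been run on poly-A RNA with a directional library kit, per the labels, and reads were mapped to GRCm39 in CLC Genomics Workbench. Whether counting used strand was not given in the sources used here. The authors deposited 1 table per cell kind with values named CPM, a normalized signal whose scaling factor was not named and whose library sums ran from 915691 to 1077213. Steps between values gave whole reads for 100% of values above 0 at a tolerance of 0.01.

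The main test was limma 3.58.1 (trend) in R 4.3.3 on log2(CPM + 1), with the 12 libraries of a table in 1 fit, keeping genes that reached 1 CPM in 3 or more libraries. Fold changes are on that scale, which understates changes of low genes. P-values were Benjamini-Hochberg adjusted over all genes tested, with a threshold of 0.05. An exact permutation test of 3 against 3 libraries cannot go below 0.1 and was not used. Tables were never tested against each other. edgeR 4.0.16 and DESeq2 1.42.0 on recovered reads, other scalings, filters and pseudocounts, and leaving out each library were alternatives. The fits were tested on simulated data. All deposited value columns were used.

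The genes named were the 10 members, Myc and Mlx, Arntl, other clock genes called in at least 4 of 6 comparisons with WT, and the 2 genes most like each member, of which 1 is not reported here; others are marked in the text. Members and lists were chosen with earlier results of these data known. Exon lengths came from GENCODE vM39, in which 529 of 41710 genes were not found. Promoter sequences came from RefSeq (GRCm38.p6). Python 3.11.15 was used for summaries.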

Additional observations from a re-analysis of the deposited data

Results flagged for a closer look

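Within a table, the effect of losing Mlx differed with Myc present or absent by the limma interaction test for Nr1d2 in primary cells (−0.35 on the log2 scale, adjusted p = 0.035) and for Clock (1.21), Nr1d1 (0.54) and Nr1d2 (1.46) in immortalized cells, where the values without WT library 4 were 1.14, 0.61 and 1.46. These were 1 and 3 of the 10 genes, against 13.5% and 47.4% of all genes called. The primary Nr1d2 call was lost in several fits that left out 1 library (limma, adjusted p up to 0.084). The immortalized Nr1d1 call was lost with library-total scaling (limma, adjusted p = 0.0832).

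For 5 genes in MycKO cells (Nr1d1 and Nr1d2 among them) and 3 in each other knockout (Nr1d2 among them), the knockout and WT libraries did not overlap in either table. Every knockout library lay on one side of every WT library in primary cells and on the opposite side in immortalized cells. The share of all genes with this pattern was not computed, and these differences between the tables were not tested. In MycKO cells the primary and immortalized log2 fold changes were 0.40 and −1.04 for Per2, 0.89 and −0.76 for Per3, 1.25 and −0.35 for Nr1d1, 0.53 and −1.002 for Nr1d2, and 0.48 and −0.72 for Tef. The immortalized values without WT library 4 were −1.34, −0.88, −0.42, −0.997 and −0.75. In MlxKO cells the primary and immortalized values were 0.42 and −0.32 for Per3, 0.34 and −0.27 for Cry1, and 0.18 and −0.83 for Nr1d2, of which the immortalized Per3 and Cry1 and the primary Nr1d2 differences were not called. These immortalized values were −0.44, −0.35 and −0.83 without WT library 4, all called. In DKO cells the primary and immortalized values were 0.95 and −0.59 for Per3, 0.36 and −0.37 for Nr1d2, and 0.40 and −0.37 for Tef, with immortalized values of −0.71, −0.37 and −0.39 without WT library 4, when that of Nr1d2 was not called.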

How the results depend on the processing

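No paired analysis was possible because the table columns number their libraries in a way that the labels do not link to replicates. Of 2620 log2 fold changes of the 10 genes recomputed under alternatives, 2402 kept their direction and their side of the threshold, 116 lost and 55 gained a call, 47 uncalled values changed sign and none of the called ones did. A minimum fold of 1 on the log2 scale, in either direction, left 2, 0 and 2 of the 10 genes in primary MycKO, MlxKO and DKO cells against WT, 2 in primary DKO against MlxKO cells and 0 in the primary interaction, and in immortalized cells 2, 0 and 0 against WT, 1 in DKO against MycKO and 0 in DKO against MlxKO cells. The counts of all genes at this minimum are not given here. Primary MlxKO against WT gave 1 gene with no filter and 1 with only the compared groups fitted, and immortalized DKO against WT gave 2 with no filter, 2 by edgeR, 5 by DESeq2, 2 by all 3 tools together and 0 with only the compared groups. Leaving out 1 library gave 7 to 9, 0 to 4 and 8 to 8 genes in primary MycKO, MlxKO and DKO cells against WT, 0 to 0 in DKO against MycKO, 6 to 9 in DKO against MlxKO and 0 to 2 in the interaction. In immortalized cells these ranges were 4 to 7, 2 to 5, 0 to 5, 5 to 7, 2 to 5 and 3 to 6. The calls over all genes also moved. In the same order they ran from 4736 to 6236, 627 to 2022, 5648 to 7193, 2053 to 3302, 5516 to 7130 and 1393 to 2180 in primary cells. In immortalized cells they ran from 4927 to 6951, 2884 to 6033, 1115 to 3248, 2578 to 5266, 2352 to 5565 and 4956 to 7299. Over all genes, immortalized DKO against WT called 2434 genes, and 906 with only the compared groups, and primary MlxKO against WT called 1164, and 2022 without MycKO library 10; the cause was not tested. Scaling each library to its own total moved the median of all genes to −0.12 (primary) and −0.16 (immortalized) in DKO against MlxKO, 0.16 in immortalized MlxKO against WT and −0.18 in the immortalized interaction. It moved the higher share of calls from 48.3% to 31.3%, 42.2% to 53.7% and 48.5% to 37.2% in primary MycKO, MlxKO and DKO against WT, 47.3% to 32.4% in primary DKO against MlxKO, and in immortalized cells 49.0% to 70.0% in MlxKO against WT, 54.0% to 29.1% in DKO against MlxKO and 49.9% to 37.2% in the interaction.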
